A study of Homo sapiens with 12 samples.

Results

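The core spliceosome genes were chosen by name from the count table: protein-coding genes of the SF3A, SF3B, PRPF, SNRP and LSM families, with PPIL2 and BCAS2 added. They number 49 of the 58735 genes in the table, and 48 passed the filter on low counts that left 17729 genes to test. The RNA was polyadenylated RNA of HEK293T cells, a wild-type human embryonic kidney line, measured in 12 libraries as 4 groups of 3. The DMSO group received vehicle. CEP is AHL-Pu-1, a purine probe that carries an electrophile and a handle for click chemistry. Cells of the CEP group were exposed to it for 1 h at 25 uM by the design text, where the treatment protocol of the same samples gives the figure in mM. The 4SU group received the photoactivatable nucleoside 4-thiouridine at 100 uM for 16 h, and the CEP+4SU group received both. One protocol text, which includes irradiation at 312 nm, is attached to all 12 libraries, so the labels do not tell which groups were irradiated. The groups share 1 cell line. The labels call the replicates independent and the study describes its experiments as biologically independent, without naming the cultures or days of single libraries, so p-values measure the spread between these libraries.

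The spliceosome removes introns from pre-mRNA. Small nuclear ribonucleoproteins (snRNPs) named U1, U2, U4, U5 and U6 after their RNAs assemble on each intron: U1 binds the 5′ splice site, U2 binds the branch point, and the U4/U6.U5 tri-snRNP then joins and is remodelled into the active enzyme with the PRP19 complex. A ring of Sm proteins sits on the U1, U2, U4 and U5 RNAs, and a related ring, LSM2 to LSM8, sits on the end of U6. The members were grouped by these particles as 8 Sm genes, 5 of U1, 11 of U2, 9 of U4/U6.U5, 2 of the PRP19 complex, 7 of the LSM2-8 ring, 6 LSM genes outside the U6 ring, and the cyclophilin PPIL2.

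Coding sequence of 4 members is shown because the members' differences between groups were ordered by the content of G and C bases. Each is the central 120 bases of the longest coding exon in GRCh38 with GENCODE 29, printed 5′ to 3′ on the strand of the gene, with G and C in capitals. The first window is from exon 23 of 25 of SF3B1, which binds the branch point with U2, at chr2:197396133-197396252 (minus strand), and is 38.3% GC, in a longest transcript of 41.0%. The second is from exon 2 of 14 of PRPF39, a U1-associated factor, at chr14:45095342-45095461 (plus strand), and is 43.3% GC, in a transcript of 37.0%. The third is from the only exon of SF3B5, a small SF3B subunit, at chr6:144095309-144095428 (minus strand), and is 57.5% GC, in a transcript of 56.6%. The last is from exon 4 of 4 of LSM7, a subunit of the ring on U6, at chr19:2321693-2321812 (minus strand), and is 66.7% GC, in a transcript of 62.1%.
SF3B1: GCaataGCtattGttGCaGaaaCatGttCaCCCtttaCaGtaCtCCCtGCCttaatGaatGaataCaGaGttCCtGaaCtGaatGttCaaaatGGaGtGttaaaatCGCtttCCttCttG
PRPF39: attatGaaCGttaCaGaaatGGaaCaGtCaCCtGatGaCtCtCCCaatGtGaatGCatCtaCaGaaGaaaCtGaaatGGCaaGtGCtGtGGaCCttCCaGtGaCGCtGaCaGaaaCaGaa
SF3B5: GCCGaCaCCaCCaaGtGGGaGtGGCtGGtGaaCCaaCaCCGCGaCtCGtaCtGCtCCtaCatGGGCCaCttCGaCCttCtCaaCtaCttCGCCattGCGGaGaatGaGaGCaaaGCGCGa
LSM7: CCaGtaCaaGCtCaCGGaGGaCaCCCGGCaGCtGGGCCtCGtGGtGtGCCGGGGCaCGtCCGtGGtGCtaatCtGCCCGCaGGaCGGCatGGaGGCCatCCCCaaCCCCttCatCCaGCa

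Library totals ran from 16569114 to 24644734 counts, and the members took 0.801% to 0.828% of them. The fewest genes were detected in replicate 2 of CEP (22230) and replicate 2 of CEP+4SU (22627), while no other library fell under 24376. These libraries also lay farthest from DMSO over the members: the mean absolute difference in log2 CPM (counts scaled by library size) from the DMSO mean was 0.26 and 0.24, against 0.046 to 0.18 in the other libraries. Markers of the HEK293 lineage (NEFL, NEFM, INA, VIM, CDH2 and PAX2) were detected in every library, and TYR, UMOD and HBB were at 0 in all of them. The other kidney and blood markers reached at most 0.319 CPM for NPHS1, 0.353 CPM for SLC34A1, 0.107 CPM for AQP2 and 0.124 CPM for PTPRC. Of the melanocyte markers, listed because the study also used a melanoma line, DCT ran from 1.41 to 6.42 CPM and rose in CEP+4SU (log2 fold change 1.23, edgeR adjusted p = 0.0455), PMEL ran from 4.52 to 10.7 CPM, MLANA reached at most 0.939 CPM and SOX10 0.469 CPM. Their part in the members' values was not tested. Fewer cells and less RNA per cell cannot be told apart in bulk RNA, and the values are shares of a library.

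In the DMSO group the members were abundant mRNAs at the median, and their levels differed widely within single particles. Levels between genes were compared as deposited FPKM, which is per annotated gene length. This length was 4909 bases for SNRPD1 and 1608 for SNRPD2, whose DMSO means were 238 and 243 CPM. The order of members within a particle and the ratios between them therefore rest on these lengths as well as on the counts. The median over the 48 tested members was 38.0 FPKM in DMSO, against 3.72 FPKM over all genes tested. Some members were not abundant: among all genes tested PRPF40B stood at percentile 17.8 and LSM6 at 51.0. LSM11, PRPF18 and LSM8 stood at percentiles 56.0, 58.8 and 59.5. SNRPB, an Sm ring subunit, had the highest level, 314 ± 19.3 FPKM (SD, n = 3), and SNRPF the lowest of the 7 Sm genes tested, 42.1 ± 2.23 FPKM. The other Sm genes ran from 48.1 FPKM for SNRPD1 to 150 FPKM for SNRPD2. In FPKM, the mRNAs of proteins that sit together in the same ring were 7.45-fold apart. SNRPN, an imprinted gene encoding a protein close to that of SNRPB, had 0 counts in all 12 libraries. SNURF, which lies within it on the same strand, was also at 0, and how reads falling in both genes were counted is not stated, so the counts set no upper limit on the SNRPN mRNA.

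Within U1, SNRPC, which helps U1 hold the 5′ splice site, reached 134 ± 5.69 FPKM, and PRPF40B, a U1-associated factor, only 0.527 ± 0.0534 FPKM, the lowest of the tested members. Within U2, SF3B5 led at 168 ± 6.82 FPKM and SF3A2 was lowest at 31.1 ± 2.49 FPKM. SF3B6, which lies at the branch point, had 103 ± 4.33 FPKM. The U2 genes below SF3B6 lay close together: SF3B4 and SF3B1 overlapped over the 3 DMSO libraries, as did SF3B2 and SF3B3, SNRPB2 and SNRPA1, and SNRPA1 and SF3A2.

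Of the U4/U6.U5 genes, PRPF8, the scaffold of the catalytic centre, was highest at 80.7 ± 1.71 FPKM and PRPF18, a second-step factor, lowest at 5.61 ± 0.367 FPKM. PRPF19, the ubiquitin ligase that names its complex, had 128 ± 7.31 FPKM and its partner BCAS2 78.6 ± 7.37 FPKM. The LSM2-8 ring was the most uneven of the particles that form a ring, from 73.7 ± 4.78 FPKM for LSM4 to 3.92 ± 0.521 FPKM for LSM6, a ratio of 18.8. Outside it, LSM14A, a P-body protein, had 31.7 ± 1.21 FPKM and LSM11, part of the U7 snRNP that processes histone mRNA, 4.99 ± 0.267 FPKM. PPIL2, a cyclophilin with a U-box, had 10.9 ± 0.428 FPKM. In all, 7 of 41 neighbouring pairs in the order within a particle overlapped over the DMSO libraries, and the others did not.

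Some member levels may carry reads of related sequence. Pseudogenes named after 14 members number 70, of which 5 had enough counts to be tested. LSM12P1 held 36.7% as many counts as LSM12, those of SNRPG 2.99% and those of SNRPE 2.28% of the parent's counts. In all, 27 members overlap another gene, 11 of them on the same strand. Whether counting used strand is not stated, so counts of members in either kind of overlap are uncertain. SNRPD3, for one, overlaps GUCD1 on the other strand (mean 2346 counts) and GGT1 on its own (mean 150 counts).

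The members' promoters shared a short sequence more often than promoters at large. RefSeq promoters (GRCh38.p14, 250 bases before to 50 after the start) were matched for 40 of the 49 members by symbol. CCGGAAG, the core bound by ETS family factors, was present on either strand in 17 of the 40 (42.5%), against 10.5% of all 27305 promoters and 17.2% of the 11577 of genes tested here. The NRF1 palindrome was in 2.5% of members and 2.07% of tested genes, CCAAT in 35% and 35.5%, and TATAAA in 2.5% and 6.27%. The searches covered both strands, and the median GC content was 61% over member promoters and 58% over all promoters. It was not taken over the promoters of genes tested, and shares at like GC content or expression level were not compared. A match is a description of letters and not a site. Windows of up to 67 bases around the first match are shown for 4 of the most highly expressed members that hold it, on the strand of the gene, with the match in capitals. They lie at chr20:2470794-2470860 for SNRPB (minus strand), chr6:34757261-34757327 for SNRPC (plus strand), chr2:24076449-24076515 for SF3B6 (minus strand) and chr1:149927793-149927859 for SF3B4 (minus strand). The RefSeq start is not always that of the gene as counted. The SF3B4 window lies within the counted gene (chr1:149923317-149928344), and so does most of the SNRPB window (chr20:2461634-2470853). The windows of SNRPC and SF3B6 lie before the counted gene. The match in SNRPC reads as the reverse complement.
SNRPB: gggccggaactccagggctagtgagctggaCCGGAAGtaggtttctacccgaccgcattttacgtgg
SNRPC: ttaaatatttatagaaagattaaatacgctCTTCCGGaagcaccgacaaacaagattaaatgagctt
SF3B6: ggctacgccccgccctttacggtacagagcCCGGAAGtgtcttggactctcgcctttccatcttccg
SF3B4: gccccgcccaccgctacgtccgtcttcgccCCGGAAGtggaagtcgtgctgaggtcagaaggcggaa

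The treatments were compared to see whether probe, nucleoside or their combination altered these mRNAs. No member passed the test in any comparison: 0 of 48 were called by edgeR's quasi-likelihood test with Benjamini-Hochberg adjustment at 0.05 over all genes. Of all genes tested, 0.0564% were called for CEP against DMSO, 0.00564% for 4SU against DMSO and 1.64% for CEP+4SU against DMSO. With each compound averaged over the other, 0.276% were called for CEP and 0.558% for 4SU, and 0% for the interaction of the compounds. With so few genes called, 0 of 48 is near the background in each comparison. At an unadjusted p under 0.05 the members numbered 9, 2 and 14 of 48 in the comparisons of CEP, 4SU and CEP+4SU with DMSO, against 18.6%, 6.50% and 21.4% of all genes. They numbered 15 for CEP averaged over 4SU, 6 for 4SU averaged over CEP and 0 for the interaction, against 24.3%, 12.6% and 2.63% of all genes. limma on log2(FPKM + 1) called 0 members in each comparison. The share of all genes it called is not given, so this 0 has no background beside it. DESeq2 called 0 for CEP, 0 for 4SU and 4 for CEP+4SU against DMSO, where it called 1.83%, 0.363% and 9.96% of the genes it tested. It called 3 members and 14.6% of genes for CEP averaged over 4SU, 1 and 2.62% for 4SU averaged over CEP, and 0 and 0% for the interaction. Not all 48 members had a DESeq2 adjusted p. For 4SU against DMSO LSM1, LSM6, LSM8, LSM10, LSM11, PRPF18 and PRPF40B had none. PRPF40B also had none for CEP, CEP+4SU and CEP averaged over 4SU, and PRPF18 none for the last of these.

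The sizes of the differences were small and bounded. The median log2 fold change of the members was -0.015 for CEP, -0.058 for 4SU and -0.015 for CEP+4SU against DMSO, and the medians over all genes were -0.0047, -0.0073 and 0.000066. The 95% interval lay within 1 log2 unit of 0 for 47 of 48 members for CEP, 48 for 4SU and 48 for CEP+4SU, and within 0.5 for 42, 46 and 43. The exception for CEP was LSM7, whose interval reached -1.02.

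**Figure D1:**
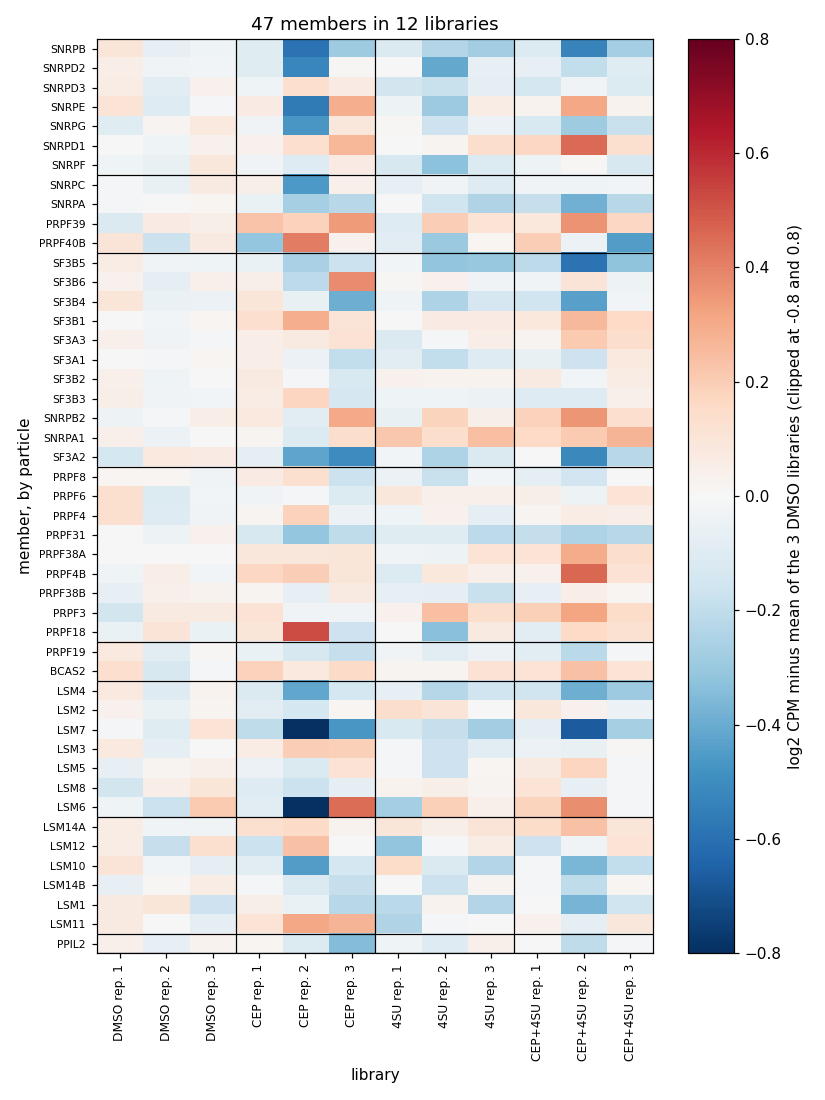
Log2 CPM of 47 tested members (rows, by particle) in the 12 libraries (columns), minus the mean of the 3 DMSO libraries, with colour clipped at -0.8 and 0.8. Replicate 2 of CEP and of CEP+4SU holds the strongest colours, in both directions, with LSM7 and LSM6 lowest in CEP replicate 2.

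Of the Sm ring, SNRPB and SNRPD1 differed in opposite directions. SNRPB had 432, 387 and 395 CPM in DMSO, 379, 268 and 332 CPM in CEP, 372, 344 and 333 CPM in 4SU, and 375, 279 and 335 CPM in CEP+4SU. All 9 treated libraries lay below the 3 of DMSO, with a log2 fold change of -0.30 ± 0.11 (SE, n = 3) in CEP+4SU that did not pass the test (edgeR adjusted p = 0.133). SNRPD1 had 239, 232 and 244 CPM in DMSO against 267, 326 and 261 CPM in CEP+4SU. It had 244, 262 and 286 CPM in CEP and 237, 242 and 262 CPM in 4SU. The CEP+4SU and DMSO groups did not overlap, and its log2 fold change was 0.26 ± 0.086 (edgeR adjusted p = 0.105, DESeq2 adjusted p = 0.0472). Without the libraries with fewest genes it was 0.15. SNRPF, the least abundant of the ring, had 126, 124 and 138 CPM in DMSO, 127, 120.1 and 135 CPM in CEP, 118, 103 and 120 CPM in 4SU, and 126, 129.9 and 118 CPM in CEP+4SU. Only its 4SU libraries all lay below DMSO.

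Of the U1 genes, PRPF39 had 49.0, 55.6 and 54.7 CPM in DMSO, 62.0, 60.2 and 67.0 CPM in CEP, 49.4, 60.8 and 57.2 CPM in 4SU, and 56.3, 67.9 and 59.6 CPM in CEP+4SU. SNRPA, the U1 protein that binds a stem-loop of U1 RNA, had 133, 135 and 136 CPM in DMSO and 119, 103 and 116 CPM in CEP+4SU, which did not overlap. Its log2 fold change was -0.26 ± 0.084 (edgeR adjusted p = 0.0973, DESeq2 adjusted p = 0.0382). Between them SNRPA had 130.2, 112 and 116 CPM in CEP and 135, 121 and 114 CPM in 4SU. SNRPC, the most abundant U1 mRNA, had 171, 165 and 181 CPM in DMSO, 178, 125 and 177 CPM in CEP, 164, 169 and 160.3 CPM in 4SU, and 168, 168 and 169 CPM in CEP+4SU. PRPF40B had 5.37, 4.43 and 5.27 CPM in DMSO, 4.05, 6.66 and 5.12 CPM in CEP, 4.71, 4.07 and 5.06 CPM in 4SU, and 5.75, 4.84 and 3.67 CPM in CEP+4SU. Each treated group of SNRPC and PRPF40B overlapped with DMSO.

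Of the U2 genes, SF3B5 had the smallest adjusted p of any member for CEP+4SU. It had 123, 115 and 114 CPM in DMSO, 113, 98.0 and 104 CPM in CEP, 115, 94.2 and 95.1 CPM in 4SU, and 102, 78.1 and 93.9 CPM in CEP+4SU. The CEP and CEP+4SU libraries all lay below DMSO, while 1 of the 4SU libraries did not. In CEP+4SU the log2 fold change was -0.36 ± 0.10 (edgeR adjusted p = 0.0653, DESeq2 adjusted p = 0.0149), and -0.26 without the libraries with fewest genes. SF3B1 is described although the rule for named genes does not choose it: it was chosen after its values were seen. It had 548, 538 and 553 CPM in DMSO and 600, 669 and 588 CPM in CEP. It had 547, 573 and 571 CPM in 4SU and 580, 654 and 610 CPM in CEP+4SU. Each of the 6 libraries with CEP lay above each of the 6 without it, as for 2 of the 48 tested members in all, against 1.21% of all genes. In the other direction 0 members did so (0.513% of all genes). 0 members separated the 6 libraries with 4SU from the 6 without it, either above (0.491% of all genes) or below (0.863%). For CEP averaged over 4SU the log2 fold change of SF3B1 was 0.15 ± 0.049 (edgeR adjusted p = 0.0884, DESeq2 adjusted p = 0.0340), and 0.030 once the trend on GC content had been removed.

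SNRPA1, which with SNRPB2 binds U2 RNA, differed with 4SU rather than CEP and was also chosen after its values were seen. It had 126, 118 and 123 CPM in DMSO, 124, 113 and 135 CPM in CEP, 142, 135 and 145 CPM in 4SU, and 137, 141 and 147 CPM in CEP+4SU. The 4SU and CEP+4SU libraries lay above DMSO, and 1 CEP library overlapped with 4SU. For 4SU averaged over CEP its log2 fold change was 0.19 ± 0.055 (edgeR adjusted p = 0.115, DESeq2 adjusted p = 0.0248), and for CEP averaged over 4SU 0.017 ± 0.055. SNRPB2 had 88.2, 90.3 and 94.1 CPM in DMSO and 103, 116 and 99.6 CPM in CEP+4SU, without overlap, with a log2 fold change of 0.23 ± 0.096 (edgeR adjusted p = 0.185). SNRPB2 had 96.1, 85.8 and 112 CPM in CEP and 87.2, 103 and 94.0 CPM in 4SU, and both groups overlapped with DMSO. SF3A2, the least abundant U2 mRNA, had 88.9, 103 and 102 CPM in DMSO, 92.9, 73.1 and 69.3 CPM in CEP, 96.7, 82.7 and 90.3 CPM in 4SU, and 98.2, 68.6 and 84.0 CPM in CEP+4SU. Each of its treated groups overlapped with DMSO.

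SF3B6, BCAS2 (SPF27 in the study) and PPIL2 had mRNA levels close to DMSO. The study lists them among proteins with cysteines sensitive to RNA crosslinking. SF3B6 had 127, 118 and 128 CPM in DMSO and 122, 133 and 121 CPM in CEP+4SU, a log2 fold change of 0.011 with a 95% interval from -0.21 to 0.23. It had 128, 108 and 162 CPM in CEP, the widest spread of its groups, and 125, 127 and 122 CPM in 4SU. BCAS2 had 113, 93.9 and 102 CPM in DMSO and 111, 121 and 111 CPM in CEP+4SU, a log2 fold change of 0.15 with an interval from -0.020 to 0.32. It had 117, 108 and 114 CPM in CEP and 104, 104 and 111 CPM in 4SU. PPIL2 had 86.3, 80.1 and 85.6 CPM in DMSO and 83.9, 72.8 and 83.5 CPM in CEP+4SU, a log2 fold change of -0.069 with an interval from -0.27 to 0.13. It had 84.9, 77.8 and 66.0 CPM in CEP and 82.1, 78.0 and 86.5 CPM in 4SU. Each treated group of these 3 genes overlapped with DMSO.

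Of the U4/U6.U5 and PRP19 genes, PRPF3, a U4/U6 protein, had 70.3, 81.7 and 81.6 CPM in DMSO and 88.7, 96.5 and 85.9 CPM in CEP+4SU, with a log2 fold change of 0.21 ± 0.088. PRPF31, which bridges U4/U6 and U5, had 79.8, 77.6 and 81.6 CPM in DMSO and 69.9, 67.0 and 68.4 CPM in CEP+4SU, with a log2 fold change of -0.22 ± 0.078. Both pairs of groups were separate, and neither gene passed the test (edgeR adjusted p = 0.169 and 0.122). PRPF19 had 372, 332 and 355 CPM in DMSO and 333, 303 and 349.6 CPM in CEP+4SU, which overlapped. PRPF3 had 84.3, 76.1 and 76.1 CPM in CEP and 79.6, 91.9 and 85.7 CPM in 4SU. PRPF31 had 72.9, 64.3 and 69.2 CPM in CEP and 74.6, 74.3 and 68.8 CPM in 4SU, all below its DMSO libraries. PRPF19 had 339, 323 and 309 CPM in CEP and 345, 332 and 341 CPM in 4SU. PRPF8 had 933, 934 and 905 CPM in DMSO, 965, 1009.5 and 822 CPM in CEP, 893, 817 and 909 CPM in 4SU, and 877, 829.8 and 922 CPM in CEP+4SU. PRPF18 had 10.2, 11.3 and 10.2 CPM in DMSO, 11.3, 15.1 and 9.39 CPM in CEP, 10.5, 8.37 and 11.1 CPM in 4SU, and 9.89, 11.8 and 11.5 CPM in CEP+4SU. Each treated group of PRPF8 and PRPF18 overlapped with DMSO.

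LSM7 had the largest fitted difference of any member, and CEP replicate 2 was its lowest library. It had 77.0, 72.7 and 83.8 CPM in DMSO and 67.6, 28.9 and 56.2 CPM in CEP. It had 71.3, 68.3 and 64.0 CPM in 4SU and 73.7, 48.9 and 64.6 CPM in CEP+4SU. For CEP against DMSO its log2 fold change was -0.61 ± 0.20 (edgeR adjusted p = 0.176). It was -0.37 for CEP averaged over 4SU, and -0.16 without the libraries with fewest genes. LSM4 had 237, 209 and 229 CPM in DMSO and 202, 172 and 184 CPM in CEP+4SU, without overlap, with a log2 fold change of -0.28 ± 0.088 (edgeR adjusted p = 0.0916, DESeq2 adjusted p = 0.0341). It had 207, 169 and 204 CPM in CEP and 215, 192 and 201 CPM in 4SU. LSM6, the least abundant of the ring, had 15.3, 13.9 and 18.1 CPM in DMSO and 14.8, 7.84 and 21.4 CPM in CEP. It had 13.0, 17.9 and 16.1 CPM in 4SU and 17.7, 20.3 and 15.5 CPM in CEP+4SU, and its log2 fold change for CEP had an SE of 0.23, the largest of any tested member. Outside the ring, LSM14A had 158, 149 and 149 CPM in DMSO, 166, 169 and 155 CPM in CEP, 162, 157 and 163 CPM in 4SU, and 168, 179 and 162 CPM in CEP+4SU. LSM10, a U7 snRNP protein, had 42.0, 38.4 and 36.9 CPM in DMSO, 36.6, 28.6 and 35.4 CPM in CEP, 43.3, 36.0 and 33.2 CPM in 4SU, and 38.6, 30.3 and 34.1 CPM in CEP+4SU. LSM11, also of the U7 snRNP, had 34.8, 33.2 and 31.5 CPM in DMSO, 35.8, 41.1 and 39.9 CPM in CEP, 28.1, 32.8 and 33.2 CPM in 4SU, and 34.0, 31.4 and 35.3 CPM in CEP+4SU, and only its CEP libraries all lay above DMSO.

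**Figure D2:**
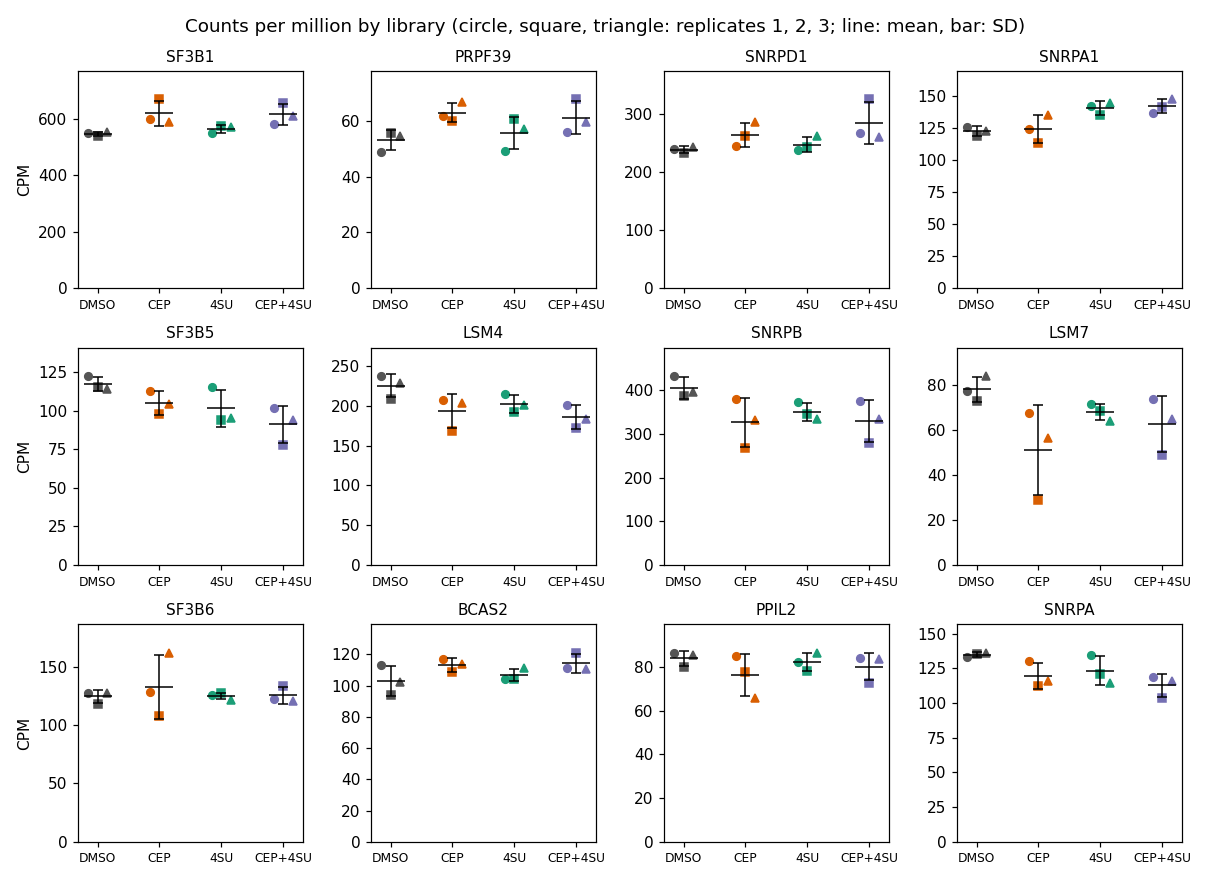
CPM of 12 members in each library of the 4 groups, from 0, with symbols for replicates 1, 2 and 3, a line at the mean and a bar of 1 SD. SF3B1 is higher in all 6 libraries with CEP, SNRPA1 is higher in 4SU and CEP+4SU than in DMSO, and LSM7 is lowest in CEP replicate 2 at 28.9 CPM.

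By particle, the differences between CEP+4SU and DMSO had no common direction. Of the Sm ring 2 of 7 genes had a positive log2 fold change, of U1 2 of 5, of U2 6 of 11, of U4/U6.U5 7 of 9, of the LSM2-8 ring 4 of 7 and of the LSM genes outside it 2 of 6. Their medians were -0.094, -0.030, 0.011, 0.040, 0.0072 and -0.050. In CEP+4SU 9 members lay wholly above DMSO and 7 wholly below, against 14.1% and 14.6% of all genes. In CEP these were 8 and 7 members (13.5% and 10.1% of all genes), and in 4SU 1 and 6 (7.58% and 10.3%).

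The order of the members' differences followed GC content. Ranked by the GC content of the longest transcript, the 16 members with least GC (35.4% to 41.0%) had a median log2 fold change of 0.17 in CEP+4SU against DMSO, the middle 16 (42.0% to 52.6%) -0.015, and the 16 with most GC (52.7% to 66.6%) -0.19. All genes tested in the same ranges of GC had medians of 0.18, 0.036 and -0.18. Of the 16 members with least GC 14 were positive, and of the 16 with most 14 were negative. Across members (n = 48), Spearman's rho between GC content and log2 fold change was -0.68 for CEP, -0.55 for 4SU and -0.76 for CEP+4SU against DMSO. Across 17718 genes it was -0.57, -0.27 and -0.51. The differences also went with annotated gene length. With length, rho was 0.44, 0.33 and 0.40 across members for these comparisons, against 0.22, 0.020 and 0.13 across all genes tested. These correlations are across genes, which share the same libraries and are not independent replicates, and the 3 comparisons share the DMSO libraries.

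In 8 of the 9 treated libraries the median difference from the DMSO mean fell in order from the members with least GC to the middle and to those with most, and 4SU replicate 1 was the exception. For the 16 members with least GC, this median was 0.086, 0.083 and 0.11 in the CEP libraries, -0.011, 0.046 and 0.056 in the 4SU libraries, and 0.098, 0.25 and 0.11 in the CEP+4SU libraries. For the middle 16 it was 0.050, -0.022 and 0.018 in CEP, -0.054, -0.022 and -0.038 in 4SU, and -0.014, -0.029 and 0.035 in CEP+4SU. For the 16 with most GC it was -0.083, -0.26 and -0.18 in CEP, -0.027, -0.18 and -0.13 in 4SU, and -0.075, -0.31 and -0.21 in CEP+4SU. For the members with most GC, replicate 2 was the lowest library of each treated group, and for those with least GC it was the highest of the CEP+4SU group. After the trend of each library on GC content was removed, rho across the members was 0.28, 0.015 and 0.12 for CEP, 4SU and CEP+4SU against DMSO, and 0 members were called in these comparisons, where 0.102%, 0.0677% and 1.30% of all genes were. For CEP averaged over 4SU 0 members and 0.338% of all genes were called. With this trend removed SF3B5 was called for 4SU averaged over CEP (log2 fold change -0.18, edgeR adjusted p = 0.0365), where 3.36% of all genes were. Whether GC content or gene length plays a part in the differences, through the RNA or through library preparation, was not tested.

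**Figure D3:**
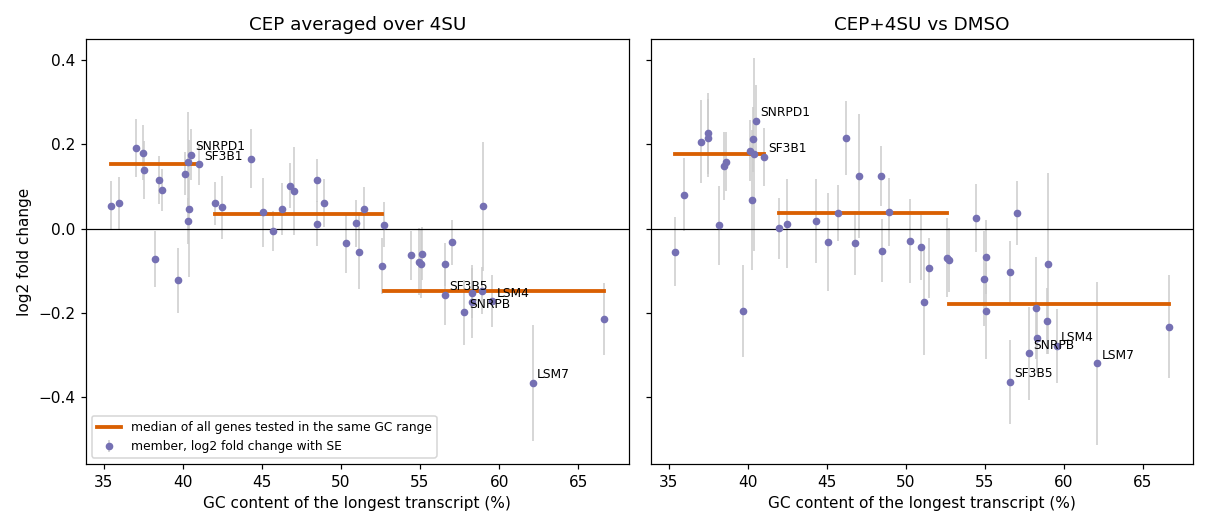
Log2 fold change (± SE) of 47 tested members against the GC content of its longest transcript in percent, for CEP averaged over 4SU and for CEP+4SU against DMSO, with lines at the median of all genes tested in the GC range of each group of 16 members. Members and all genes fall from above 0 at low GC to below 0 at high GC, and SF3B1 and SNRPD1 stand at one end with SF3B5, LSM4, SNRPB and LSM7 at the other.

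Of 72 other spliceosome genes, from U1-associated to catalytic-step factors, 0 were called by edgeR in any comparison. At an unadjusted p under 0.05 they numbered 15 for CEP (20.8% of them, against 18.6% of all genes), 2 for 4SU (2.78% against 6.50%) and 24 for CEP+4SU against DMSO (33.3% against 21.4%). For CEP+4SU their median log2 fold change was 0.047, and the nearest to the threshold was RBM25, a U1-associated factor, at 0.30 ± 0.084 (edgeR adjusted p = 0.0691). limma called 0 of the 72 in every comparison, again without a share of all genes to set beside it. DESeq2 called 6 for CEP+4SU against DMSO (5 higher), 9 for CEP averaged over 4SU (7 higher) and 1 for 4SU averaged over CEP, where it called 9.96%, 14.6% and 2.62% of all genes it tested, and 0 in the other comparisons. With the trend on GC content removed edgeR called 1 of the 72, SF1, which binds the branch point before U2 does, as lower for 4SU averaged over CEP (3.36% of all genes), and 0 in the other comparisons.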

How the data were processed

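Polyadenylated RNA of 12 HEK293T libraries in 4 groups of 3 was analysed. After discarding low-quality, adapter and poly-N reads, the authors used HISAT2 2.0.5 for alignment (GRCh38) and featureCounts 1.5.0-p3 for gene counts, which are deposited raw. The FPKM values were deposited by the authors on a linear scale, per gene length and adjusted library size. Strand use in counting is not given in the sources used here.

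With R 4.3.3 and edgeR 4.0.16, genes were filtered by filterByExpr (minimum count 10, minimum total 15), normalized by TMM and fitted in 1 quasi-likelihood model of 4 groups over 12 libraries (prior count 0.125), with Benjamini-Hochberg adjustment over 17729 genes at 0.05. The common biological coefficient of variation was 0.114. CPM values use TMM library sizes. Standard errors combine the fit's information matrix with the quasi-likelihood dispersion. GC content is that of the longest GENCODE 29 transcript, and its trend was removed per library as an offset. limma 3.58.1 (pseudocount 1 or 0.1) and DESeq2 1.42.0 were alternatives. Others were scalings, filters, a replicate block, an adjusted p threshold of 0.5 and libraries left out. The model was tested on simulated data. The authors' group means of FPKM were not used.

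The members and lists were chosen with earlier results of these data known. Values by library are given for SF3B6, BCAS2, PPIL2, any member called, and, within each particle, the member with the largest rise and fall in CEP+4SU and the highest and lowest level in DMSO, with a mean of at least 1 CPM for rise and fall. Values of 1 tested member are not reported here, and counts, medians and ranges over the members include it.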

Additional observations from a re-analysis of the deposited data

How the results depend on the processing

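No member was called in 6 comparisons, and this held under upper-quartile or library-size scaling, the stricter filter, limma, robust dispersion, the length trend, and without both libraries with fewest genes. Where members were called, the share of all genes called under the same setting is given. For the settings just named it is not given, so their counts of 0 have no background beside them. The threshold of 0.5 is on the adjusted p, the cutoff printed in the study's methods, in place of 0.05. It is not a cutoff on fold change. For CEP against DMSO 3 were called without a filter (1.86%), 3 with a replicate block (4.40%) and 21 at a threshold of 0.5 (44.4%), and 0 to 4 with 1 library left out (4 without CEP replicate 1, 6.61%). For CEP+4SU 4 were called by DESeq2 (9.96%), 4 without a filter (3.46%), 5 with the block (9.40%), 1 with only the libraries compared (3.36%), 25 at a threshold of 0.5 (47.0%), and 0 to 2 with 1 library left out (1 without CEP replicate 1, 3.20%, and 2 without CEP replicate 2, 3.52%, or CEP+4SU replicate 1, 4.42%). For CEP averaged over 4SU 3 were called by DESeq2 (14.6%), 4 without a filter (4.06%), 9 with the block (12.8%), 24 at a threshold of 0.5 (52.3%), and 0 to 6 with 1 library left out (6 without CEP replicate 1, 11.8%, and 4 without CEP+4SU replicate 1, 6.16%). For 4SU averaged over CEP 1 was called by DESeq2 (2.62%), 2 with the block (1.90%), 1 with the GC trend removed (3.36%) and 8 at a threshold of 0.5 (20.5%). The cause was not tested. Replicate numbers were not taken to pair the libraries: deviations of same-numbered libraries correlated at -0.047 to 0.14, over 0.1 in 1 of 18 pairs. However, 8 of 12 libraries correlated best with their own number, a hint from the data and not from the design, and the block raised the genes called in all for CEP averaged over 4SU from 49 to 2269. For CEP, 4SU, CEP+4SU, 4SU averaged and the interaction they were 780, 8, 1667, 336 and 0 with the block.

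By library size alone the members' median for 4SU was -0.0016 and for 4SU averaged over CEP 0.027, where the median of all genes also moved, by 0.056 and 0.044. With 1 library left out the median for 4SU was -0.064 to -0.024 (-0.024 without 4SU replicate 2) and for CEP averaged over 4SU -0.012 to 0.035 (-0.012 without CEP+4SU replicate 3). Leaving out a library raised the members whose groups did not overlap along with all genes. For CEP 15 (23.7% of all genes) became 16 to 23 (30.5% to 44.2%), with 23 without CEP replicate 1 (44.2%). For 4SU 7 (17.9%) became 9 to 18 (25.5% to 35.4%), with 17 without DMSO replicate 1 (27.3%) and 18 without 4SU replicate 1 (35.4%). For CEP averaged over 4SU 2 (1.73%) became 2 to 5 (1.93% to 4.34%), with 5 without 4SU replicate 3 (2.70%). For 4SU averaged over CEP 0 (1.35%) became 1 in deposited FPKM (1.36%) and 0 to 1 with 1 library left out (1.60% to 2.44%). With the GC trend removed, the log2 fold change in CEP+4SU turned for SF3B6 (-0.099), BCAS2 (-0.026), PRPF19 (0.040) and LSM14A (-0.013). For CEP averaged over 4SU it turned for SNRPB2 (-0.021), PRPF3 (-0.0039), PRPF19 (0.023), LSM14A (-0.060) and LSM6 (-0.081). SF3B6 in CEP+4SU was -0.034 without both libraries with fewest genes, and -0.034 to 0.031 with 1 left out. LSM6 for CEP averaged over 4SU was -0.013 by limma on log2(FPKM + 0.1), and -0.14 to 0.19 with 1 library left out. The cause was not tested. Depth limits PRPF40B, PRPF18 and LSM6 most, whose counts are the lowest of the tested members.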

Other observations

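Of the genes that help assemble snRNPs, SMN1 and GEMIN4 passed the test. The SMN complex loads Sm rings onto snRNAs, and 18 genes of snRNP assembly were listed. For CEP+4SU against DMSO edgeR called 2 of the 18, both lower, where 1.64% of all genes were called: SMN1, the core of the complex, and GEMIN4, one of its partners. SMN1 had 50.5, 41.2 and 62.1 CPM in DMSO, 47.2, 44.2 and 34.7 CPM in CEP, 94.3, 56.1 and 54.1 CPM in 4SU, and 27.0, 35.5 and 24.8 CPM in CEP+4SU. It fell by 0.82 on the log2 scale in CEP+4SU (edgeR adjusted p = 0.0425, DESeq2 adjusted p = 0.0345), and by 0.99 without the libraries with fewest genes (edgeR adjusted p = 0.0105). For CEP averaged over 4SU it fell by 0.76 (edgeR adjusted p = 0.0171). This average joins the differences without and with 4SU, and the 4SU library at 94.3 CPM enters it. For CEP against DMSO, where the groups overlapped, the log2 fold change was -0.29 (DESeq2 adjusted p = 0.482). The interaction, the gap between the differences with and without 4SU, was -0.95 and did not pass the test (DESeq2 adjusted p = 0.998). limma on log2(FPKM + 1) called neither gene.

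SMN2, a near-identical copy of SMN1, differed the other way, from 19.4, 22.8 and 20.8 CPM in DMSO to 30.5, 28.5 and 26.9 CPM in CEP+4SU, with a log2 fold change of 0.45 that did not pass the edgeR test (adjusted p = 0.0709) and passed DESeq2 (adjusted p = 0.0246). How reads shared by the copies were counted is not stated, so the values of each copy are uncertain. Their summed level was 72.2 ± 9.70 CPM (SD, n = 3) in DMSO, 68.6 ± 5.65 CPM in CEP, 89.8 ± 22.1 CPM in 4SU and 57.7 ± 6.18 CPM in CEP+4SU, and the sum was not tested. GEMIN4 had 162, 154 and 157 CPM in DMSO and 134, 116 and 129 CPM in CEP+4SU. It fell by 0.32 (edgeR adjusted p = 0.0492), and without the libraries with fewest genes the log2 fold change was -0.27 (edgeR adjusted p = 0.0992). With the trend on GC content removed GEMIN4 was no longer called (-0.21, edgeR adjusted p = 0.0747), while SMN1 was (-0.94, edgeR adjusted p = 0.0137).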
